A study of Mus musculus with 16 samples.

Results

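The comparison here is between the MHC class II high (mTEChi) and MHC class II low (mTEClo) medullary thymic epithelial cells of mice labelled Brg1-/-. Below, cells with this label are also described as without Brg1. The method was ATAC-seq, which reads open chromatin from the insertions of the transposase Tn5. The members are the genomic regions whose deposited signal averaged at least 7.5 over the 2 mTEChi and 2 mTEClo libraries labelled Brg1-/-. They numbered 208113 of the 250313 regions in the table. Each region was 500 bp long and is given here in mm9 coordinates counted from 1.

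All mice were C57BL/6 and 4 weeks old. The Brg1-/- cells came from thymi and were gated as live, CD45-negative, EpCAM-positive, UEA-positive and Ly51-low before the split by MHC class II. The same sorts of Brg1+/+, Aire+/+ and Aire-/- mice, again with 2 libraries per group, served as the comparison. The labels name neither the promoter that drives Cre in the Brg1-/- line nor how many mice went into a library. The column names of the Brg1+/+ libraries read NOCRE, so loss of Brg1 and presence of Cre cannot be told apart between those genotypes. The sort difference within Brg1-/- is made between cells of 1 genotype. The labels do not state whether replicate libraries are from different mice. The p-values below measure only the spread between replicate libraries, which may be technical. That spread was estimated for each region from all 8 groups together, not from the Brg1-/- libraries alone.

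Brg1, encoded by Smarca4, is an ATPase of the SWI/SNF remodelling complexes, which move and evict nucleosomes and so change which DNA is open to other proteins. Medullary thymic epithelial cells transcribe many genes otherwise restricted to single peripheral tissues and present the products to developing T cells. The MHC class II high fraction holds most cells that express Aire, a regulator of that transcription. The MHC class II low fraction is mixed and includes cells that precede the high stage as well as cells that follow it. In bulk libraries, fewer cells with an open region and less opening per cell cannot be told apart. The regions were not linked to genes, because no annotation of the mm9 build was used here. Neither the loss of Brg1 nor the identity of the sorted cells was therefore checked at the marker genes.

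The libraries differed in ways that touch every result below. The median signal over all regions was 15.4 and 19.8 in the Brg1-/- mTEChi libraries and 9.23 and 10.6 in the mTEClo libraries, while the 99th percentiles lay between 213.7 and 217.3. The lowest values differed as well. The 1st percentile was 1.55 and 1.38 in mTEChi and 0.456 and 0.396 in mTEClo, so a region near the bottom of the scale read lower in mTEClo than in mTEChi. Across members, log2(signal + 1) correlated between the 2 mTEClo libraries with a Pearson r of 0.785. Between the 2 mTEChi libraries r was 0.552, against 0.562 and 0.563 between mTEChi replicate 1 and the mTEClo libraries and 0.516 and 0.507 between mTEChi replicate 2 and the mTEClo libraries. The corresponding replicate values in Brg1+/+ were 0.701 in mTEChi and 0.826 in mTEClo. The regions behind these correlations are not independent replicates. The median absolute difference between replicates was 0.73 on the log2 scale in Brg1-/- mTEChi and 0.55 in mTEClo. The depth of sequencing is not recorded with the values.

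Without Brg1, 14502 members were more open in mTEChi and 3295 were more open in mTEClo (limma, Benjamini-Hochberg adjusted p under 0.05, two-sided). These are 6.97% and 1.58% of the 208113 members, together 8.55%, where the whole table had 5.98% and 1.32%. On the deposited scale the mTEChi-higher calls had the larger fold changes. Their median log2 fold change, mTEChi over mTEClo on the log2(signal + 1) scale, was 2.66, and 12017 of them (82.9%) reached 2 or more. For the mTEClo-higher regions the median was -1.93, and 1502 of them (45.6%) reached an absolute value of 2. The mTEClo-higher regions were the more open ones, with a median mean signal of 48.6 against 22.3. The median standard error (SE) was 0.47 for the mTEClo-higher calls and 0.70 for the mTEChi-higher ones, so smaller changes could be called among the former. Over all members the median log2 fold change was 0.64, a shift that enters the sizes of both directions. The sizes of the 2 directions are therefore not comparable as such. Both mTEChi libraries lay above both mTEClo libraries at 93561 members (45%, against 43.6% in the whole table), and the reverse held at 21214 (10.2%, against 9.71%).

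The direction of the majority depended on the scaling of the libraries. With the values as deposited, 81.5% of the calls were higher in mTEChi. Quantile normalization left 3244 higher in mTEChi and 5834 higher in mTEClo (35.7% mTEChi-higher). Cyclic loess gave 3642 and 4295 (45.9%), and re-centring each library on its median gave 2998 and 12177 (19.8%). These rescalings moved the median over members from 0.64 to 0.016, 0.067 and -0.12. Under the deposited scale and all 3 rescalings, 3032 of the 3295 mTEClo-higher regions (92.0%) were called, against 2261 of the 14502 mTEChi-higher ones (15.6%). Each rescaling draws the distributions of the libraries together by its construction, so it is no test of the excess itself. All 3 shifted the members towards mTEClo, which favours the mTEClo-higher calls in these shares.

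The counts also depended on single libraries. Without mTEChi replicate 1, 7052 regions were called higher in mTEChi and 2400 higher in mTEClo. Without mTEChi replicate 2 the numbers were 3514 and 2205. Without mTEClo replicate 1 they were 5316 and 1018, and without mTEClo replicate 2 they were 6432 and 1260. The mTEChi-higher calls were the more numerous in each of these fits on the deposited scale. In each of them the lone library of a sort is assumed to vary like the other groups. In all 4 of these fits 1330 of the mTEChi-higher calls (9.17%) and 515 of the mTEClo-higher ones (15.6%) were called. The regions called in all 4 and under every scaling numbered 1178 in the mTEChi direction and 515 in the mTEClo direction.

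**Figure D1:**
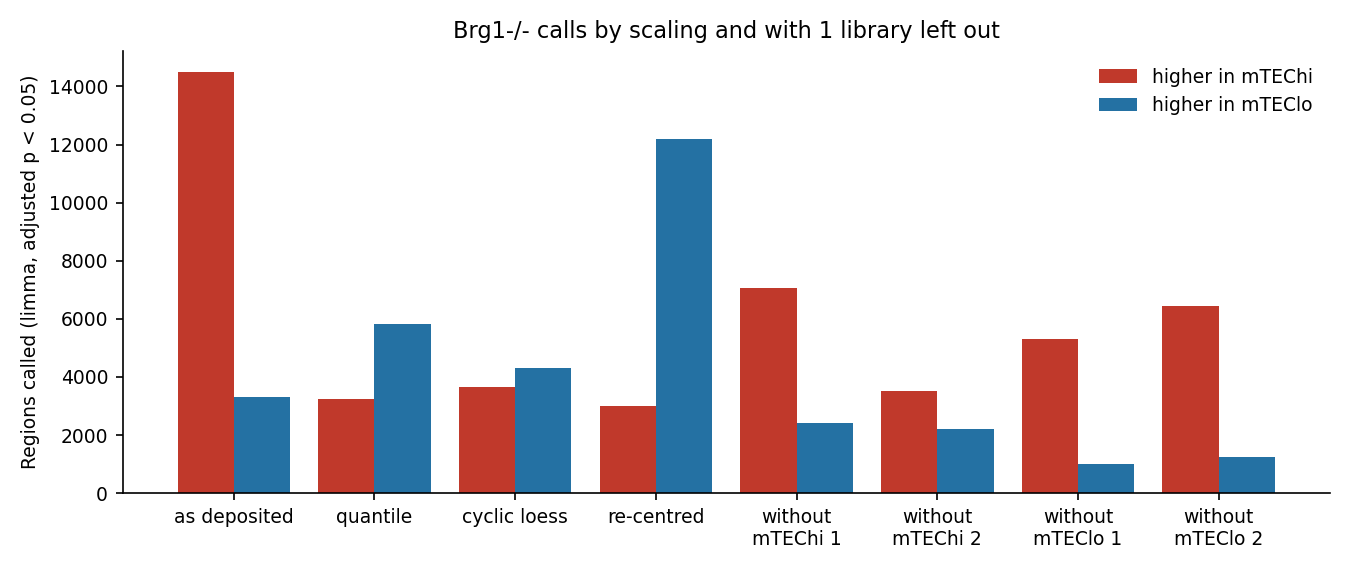
Number of members called by limma (adjusted p under 0.05) in Brg1-/-, higher in mTEChi (red) or in mTEClo (blue), with the values as deposited, after 3 rescalings, and with each Brg1-/- library left out. The red bar is the taller with the deposited values (14502 against 3295) and in the 4 fits without a library, and the blue bar is the taller after each rescaling.

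The calls were spread unevenly over the range of openness. When members were ranked by mean signal and divided into 10 equal parts, the median log2 fold change was 0.69 in the lowest part, 0.88 in the 6th and 0.075 in the highest. In the highest part 63.1% of regions lay within 0.5 of no change on the log2 scale, against 30.9% in the lowest. The share called higher in mTEChi went from 2.34% in the lowest part to 13.2% in the 8th and 6.06% in the highest. The median SE fell over the same parts from 0.877 to 0.606 and 0.314, and its part in these shares was not tested. The share called higher in mTEClo increased from part to part, from 0.139% to 6.23%. Only in the highest part did mTEClo-higher calls (1296) outnumber mTEChi-higher calls (1262). Brg1+/+ cells showed a similar shape, with a median of 0.065 in the highest part. Among the most open regions the counts of the 2 directions were thus close without Brg1.

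**Figure D2:**
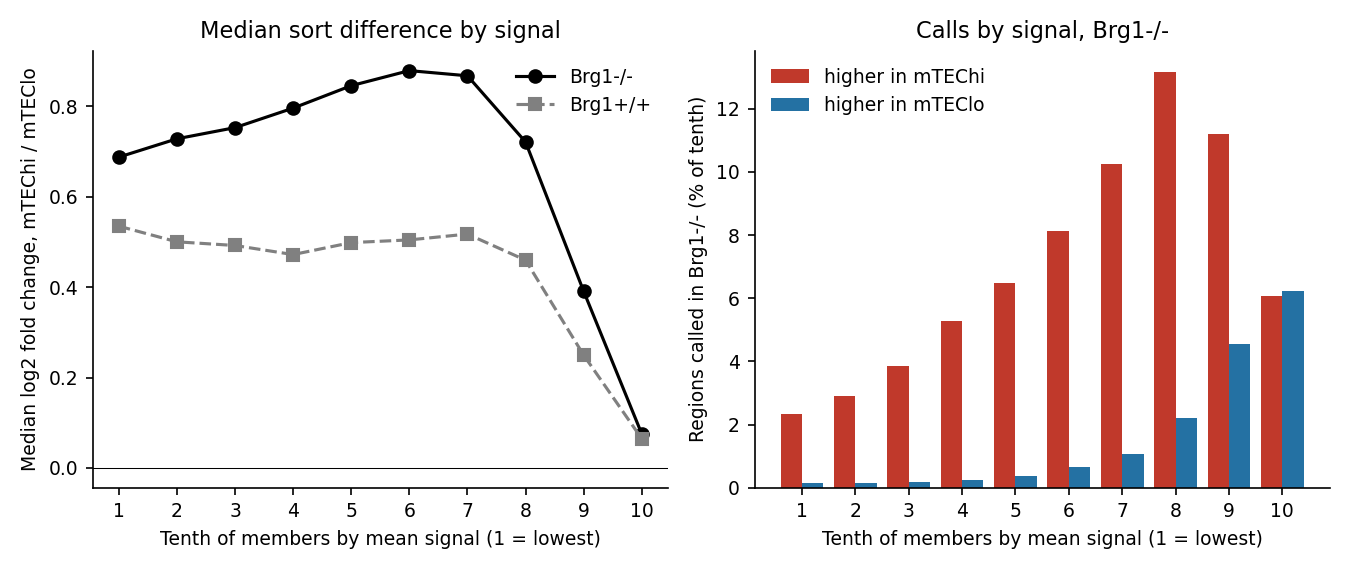
Members ranked by mean signal over the 4 Brg1-/- libraries and divided into 10 equal parts. Left, the median log2 fold change of mTEChi over mTEClo in Brg1-/- (black) and Brg1+/+ (grey); right, the share of each part called higher in mTEChi (red) or mTEClo (blue) in Brg1-/-. The Brg1-/- median falls from 0.88 in the 6th part to 0.075 in the highest, where the blue share (6.23%) reaches the red one (6.06%).

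The 10 largest mTEChi-higher differences, among called members with at least the median signal and no overlap between the sorts, ranged from 4.92 to 5.29 on the log2 scale. They were open in mTEChi, and 9 of the 10 lay near the floor of the scale in both mTEClo libraries. The other, on chromosome 17 from 35674339 to 35674838, read 2.87 and 0.416 in mTEClo against 54.4 and 89.7 in mTEChi. On chromosome 6 from 45659589 to 45660088, signal was 36.7 and 84.7 in the mTEChi libraries and 0.527 and 0.440 in the mTEClo libraries. The log2 fold change there was 5.26 with an SE of 0.77 (limma adjusted p = 0.000104). The mTEClo values of this region stood close to the 1st percentiles of their libraries, so its fold change depends on the floor. Brg1+/+ cells gave 37.5 and 50.7 against 4.19 and 2.90 at the same place, a log2 fold change of 3.31.

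The Brg1+/+ values at these regions took more than 1 form. On chromosome 12 from 36913661 to 36914160, the Brg1-/- libraries read 37.3 and 64.1 in mTEChi and 0.513 and 0.413 in mTEClo. The Brg1+/+ libraries read 32.7 and 36.3 in mTEChi and 9.76 and 12.5 in mTEClo. The mTEChi levels of the 2 genotypes were thus close, and the Brg1-/- mTEClo level was the one that stood low. Brg1-/- values chose this region, so that low level follows in part from the choice. The test of the difference between the genotypes was not passed at this region (difference 3.54, limma adjusted p = 0.411). On chromosome 12 from 114294501 to 114295000, by contrast, the mTEChi level was the one that differed: it was 38.3 and 51.4 without Brg1, against 5.80 and 6.28 in Brg1+/+. The Brg1+/+ difference between the sorts at this region was 1.33 (limma adjusted p = 0.438), against 4.99 in Brg1-/-. The test of the difference between the genotypes was not passed there (difference 3.66, limma adjusted p = 0.641).

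The 3 mTEChi-higher regions with the smallest adjusted p had mTEClo values above the 1st percentiles of those libraries (0.456 and 0.396). In 1 of them the mTEClo values were still low. On chromosome 6 from 115888795 to 115889294, signal was 118.2 and 137.5 in mTEChi and 6.64 and 9.29 in mTEClo. The log2 fold change was 3.86 with an SE of 0.38 (limma adjusted p = 4.82e-07). Brg1+/+ cells gave 153.6 and 155.8 against 15.1 and 12.7. On chromosome 8 from 45541562 to 45542061, the Brg1-/- libraries read 192.4 and 210.5 in mTEChi and 37.1 and 21.7 in mTEClo, a log2 fold change of 2.78. In Brg1+/+ the change at this region was 3.03. On chromosome 9 from 121221334 to 121221833, the mTEChi libraries read 107.7 and 76.8 and the mTEClo libraries 2.80 and 2.59 (log2 fold change 4.64, limma adjusted p = 4.82e-07). In Brg1+/+ the mTEChi libraries of this region read 164.6 and 141.8, so all 3 regions were strongly open in mTEChi of both genotypes.

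The 10 largest mTEClo-higher differences ranged from -3.90 to -4.97. These regions were strongly open in mTEClo, and in mTEChi at least 1 library lay near its floor. On chromosome 6 from 122745404 to 122745903, the mTEChi libraries read 1.41 and 1.30 and the mTEClo libraries 53.2 and 66.5 (log2 fold change -4.68, SE 0.53, limma adjusted p = 3.13e-06). Brg1+/+ cells read 11.7 and 9.02 in mTEChi at that place, against 89.4 and 74.3 in mTEClo. Brg1-/- values chose these regions, so lower values in Brg1-/- mTEChi than in Brg1+/+ mTEChi follow in part from the choice. On chromosome 12 from 103482016 to 103482515, Brg1-/- mTEChi read 1.51 and 1.38 and Brg1+/+ mTEChi 14.6 and 9.51. Its mTEClo values were 52.1 and 44.5 without Brg1, against 63.1 and 75.1 in Brg1+/+. The test of the sort difference between these genotypes was not passed at either region (limma adjusted p = 0.665 and 0.657). The mTEChi replicates did not always match. On chromosome 5 from 149089694 to 149090193 they read 19.8 and 1.99, against 173.1 and 129.8 in mTEClo (log2 fold change -4.26).

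The smallest adjusted p of either direction was that of a mTEClo-higher region on chromosome 11 from 41751294 to 41751793. It read 2.01 and 1.90 in mTEChi, near the floor, and 80.2 and 104.0 in mTEClo (log2 fold change -4.97, limma adjusted p = 1.26e-09). The next was a region of chromosome 8 from 125661573 to 125662072, with 10.1 and 12.5 in mTEChi and 170.2 and 142.7 in mTEClo. Its log2 fold change was -3.68 with an SE of 0.32 (limma adjusted p = 2.46e-08), and in Brg1+/+ it was -2.55. Another lay on chromosome 8 from 36363353 to 36363852. It read 15.6 and 28.3 in mTEChi and 186.9 and 210.6 in mTEClo, with a log2 fold change of -3.17. In Brg1+/+ the change was -2.65. The ranked regions were chosen by extreme values in these same libraries. Their passing in other fits follows in part from that choice. The 20 regions ranked by fold change and the regions ranked by adjusted p were called under all 3 rescalings and without each Brg1-/- library in turn.

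**Figure D3:**
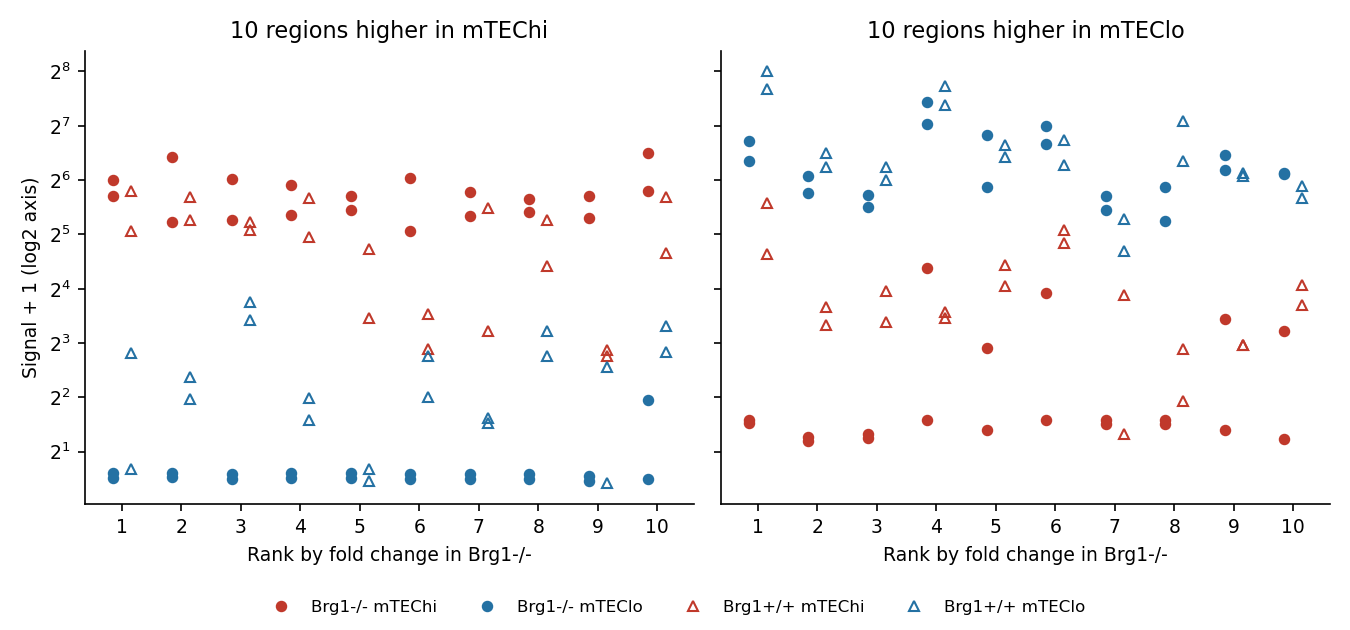
Signal + 1 of each Brg1-/- library (filled circles) and Brg1+/+ library (open triangles) at the 10 called members with the largest fold change in each direction in Brg1-/-, on a log2 axis, in mTEChi (red) and mTEClo (blue). Left, the blue circles lie at the bottom of the scale at nearly all ranks, while blue triangles mostly lie above them. Right, the lowest points are red circles at most ranks. Brg1-/- values chose these regions, so such gaps to Brg1+/+ follow in part from the choice.

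Some regions passed from near absence in 1 sort to clear presence in the other. Taking a signal of at most 5 in both libraries of a sort as near absent and at least 40 in both as present, limits chosen after the values were seen, 124 members were present in mTEChi and near absent in mTEClo. The reverse held for 5. All 124 had the same direction in Brg1+/+, with a median log2 fold change of 2.64, and 85 of them were called there. All 5 were called in the same direction in Brg1+/+. The same limits in Brg1+/+ gave 229 and 48. Because the floors of the sorts differ, the counts of the 2 directions cannot be compared as such.

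Calls of 1 direction often lay near each other, but so did the regions themselves. Of the 208113 members, 108777 lay under 1 kb from another region of the table. Whether the runs exceed what the density of regions and calls gives was not tested. Joining successive calls at most 50 kb apart, with no call of the other direction between them, placed 66.0% of the mTEChi-higher calls in 3010 runs of 2 or more, and 50 runs held 10 or more. Of the mTEClo-higher calls 30.6% lay in 445 such runs, none longer than 6. The gap sets these figures: at most 20 kb apart, 45.8% of the mTEChi-higher and 21.9% of the mTEClo-higher calls lay in runs, 7 mTEChi-higher runs held 10 or more, and the longest runs held 16 and 4. The mTEClo-higher calls are fewer, so these shares are not comparable between the directions. The longest run covered chromosome 13 from 51896328 to 52284437 and held 25 calls among 112 members, of which 92 were positive. At its called regions the median log2(signal + 1) was 5.72 and 5.62 in the Brg1-/- mTEChi libraries and 2.84 and 3.09 in the mTEClo libraries. The Brg1+/+ comparison called 21 members of this stretch higher in mTEChi and 2 higher in mTEClo. These were only in part the members called in Brg1-/-. At 22.4 kb from the first region the limma adjusted p was 0.0122 in Brg1-/- and 0.192 in Brg1+/+. At 14.9 kb it was 0.668 in Brg1-/- and 0.0286 in Brg1+/+.

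The next runs had similar counts in both genotypes, though the members called need not be the same. Chromosome 11 from 53440231 to 53658097 held 19 calls among 104 members, with 20 in Brg1+/+, and chromosome 5 from 53776738 to 53946653 held 17 among 42, with 20 in Brg1+/+. The median over all members of the chromosome 5 stretch was 1.77. Under the 3 rescalings the chromosome 13 run held 5 to 6 calls higher in mTEChi, the chromosome 11 run 6 to 7 and the chromosome 5 run 4 to 5. The chromosome 13 run then also held 1 to 2 calls higher in mTEClo, and under re-centring the chromosome 11 run held 4 and the chromosome 5 run 1. Without 1 Brg1-/- library the chromosome 13 run held 8 to 14.

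Runs of mTEClo-higher calls were short. Those with the most calls held 6 each, on chromosome 1 from 195336225 to 195395098 (25 members), chromosome 13 from 56699091 to 56758117 (22 members) and chromosome 6 from 94801326 to 94882154 (16 members). Of their members 17, 10 and 12 were negative, and the median over the members of the chromosome 13 run was positive, at 0.28. The Brg1+/+ comparison called 8, 7 and 5 members of these stretches higher in mTEClo, which need not be the members called in Brg1-/-. At the called regions of the chromosome 1 run, the median log2(signal + 1) was 3.73 and 2.77 in Brg1-/- mTEChi and 5.68 and 6.27 in mTEClo. All 3 rescalings left 6 or 7 calls in each of these runs, and leaving out 1 Brg1-/- library left 2 to 5.

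**Figure D4:**
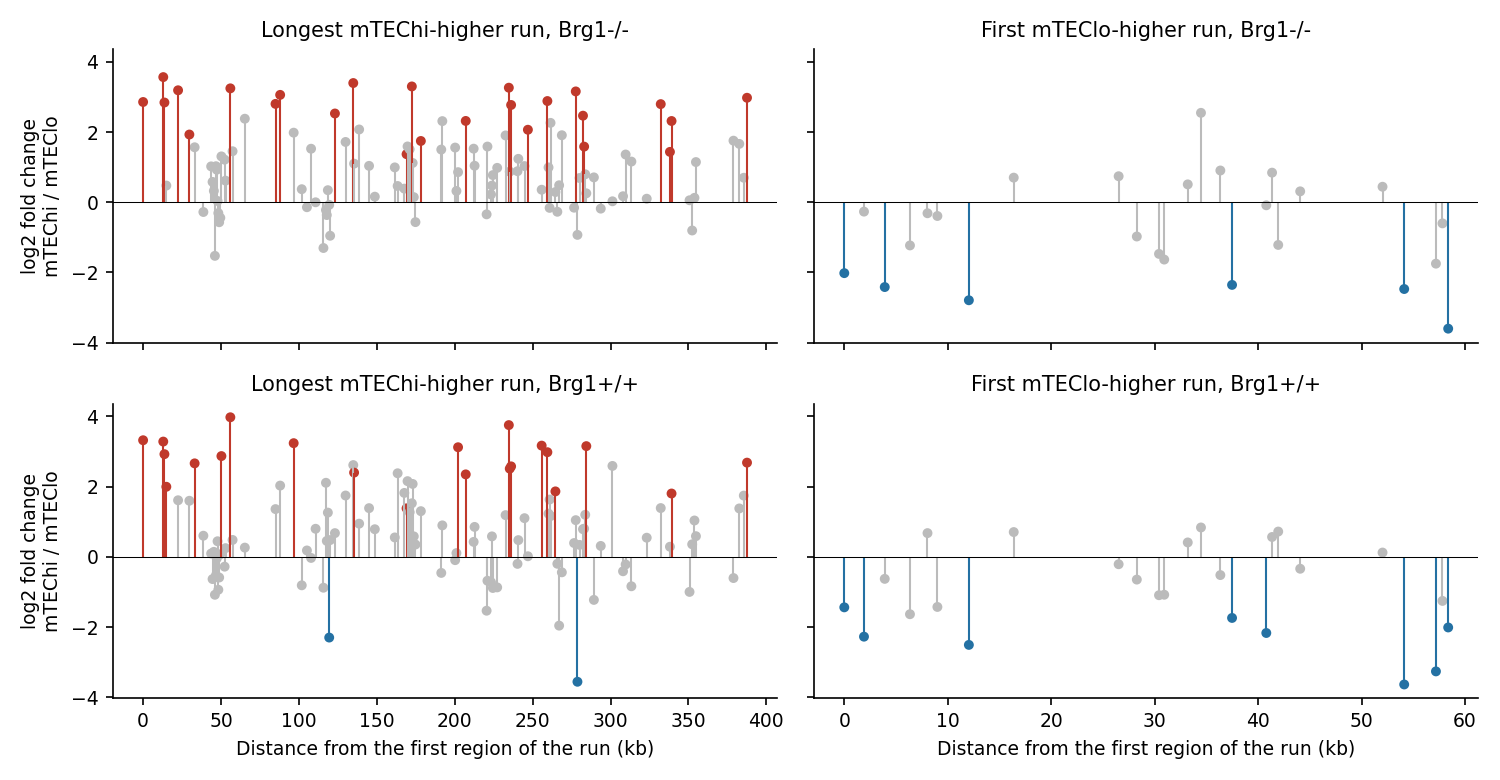
Log2 fold change of mTEChi over mTEClo at every member of the longest mTEChi-higher run (left, chromosome 13) and of the first mTEClo-higher run (right, chromosome 1), against the distance from the first region of the run in kb, in Brg1-/- (top) and Brg1+/+ (bottom). Red and blue points were called higher in mTEChi or mTEClo and grey points were not called; the 25 red points in Brg1-/- lie among members near 0.

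Chromosome X stood apart from the autosomes. The share of members called higher in mTEChi lay between 6.23% and 8.11% on each autosome and was 3.30% on chromosome X. The share called higher in mTEClo was 0.990% on X and lay between 1.12% and 2.01% on the autosomes. The mTEChi-higher share on X was also below that of the autosomes in each of the 10 parts by mean signal, for instance 4.93% against 13.3% in the 8th. The mTEClo-higher share on X was above that of the autosomes in 6 of the 10 parts, for instance 1.78% against 1.06% in the 7th. A part held 257 to 389 X members, and X had 30 mTEClo-higher calls in all. These shares therefore rest on few regions. The median log2(signal + 1) of X members was 4.17 and 4.47 in the Brg1-/- mTEChi libraries, below the autosomal 4.31 and 4.59. In the mTEClo libraries it was 3.61 and 3.78, above the autosomal 3.55 and 3.71. The 4 Brg1+/+ libraries had the same order, below the autosomes in mTEChi and above them in mTEClo. The sex of the mice is not in the labels, and its part in these values was not tested.

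Of the members within 1 kb of another region of the table, 5.97% were called higher in mTEChi, and of those 1 to 2 kb from one, 8.58%. With wider spacing the mTEChi-higher share was 8.42% at 2 to 5 kb, 7.60% at 5 to 20 kb and 5.72% over 20 kb, so it did not increase with distance throughout. For mTEClo-higher calls the shares were 2.02%, 1.18%, 1.14%, 1.06% and 0.700% in the same order. The median signal of the 5 classes went from 17.8 in the closest to 12.6 in the widest, and the part of signal in this order was not tested.

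The sort difference was next set beside that of Brg1+/+ cells, which shares no library with it. In Brg1+/+ cells 18886 members were called more open in mTEChi and 8052 more open in mTEClo, 9.07% and 3.87% of members, where the whole table had 8.08% and 3.25%. The lists overlapped at 6442 mTEChi-higher regions, 44.4% of the Brg1-/- list and 34.1% of the Brg1+/+ list. They overlapped at 2043 mTEClo-higher regions, 62.0% of the Brg1-/- list and 25.4% of the Brg1+/+ list. At the regions called in Brg1-/-, the sign in Brg1+/+ was the same for 94.6% of mTEChi-higher and 97.4% of mTEClo-higher regions, where over all members it was the same for 72.5%. Across members the fold changes of the genotypes correlated with a Pearson r of 0.55 and a Spearman rho of 0.53, a description over regions that share libraries. Quantile normalization lowered the shared mTEChi-higher regions to 1511, and re-centring lowered them to 1356.

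At regions that Brg1+/+ called higher in mTEClo, the Brg1-/- sorts stood closer together. The median log2(signal + 1) of these 8052 regions was 3.68 in Brg1+/+ mTEChi and 6.03 in Brg1+/+ mTEClo, the values that chose them. In Brg1-/- it was 4.35 in mTEChi and 5.39 in mTEClo, and the median of the log2 fold changes was -0.91. At the 18886 regions that Brg1+/+ called higher in mTEChi, the Brg1-/- medians were 5.08 and 3.31, with a median fold change of 1.64. Since Brg1+/+ values chose these regions, a smaller change in other libraries follows in part from the choice. The other direction gave the like picture: the 14502 mTEChi-higher regions of Brg1-/-, with a median of 2.66, had 1.79 in Brg1+/+, 1.39 in Aire+/+ and 1.57 in Aire-/-. The 3295 mTEClo-higher regions, with -1.93, had -1.55, -1.58 and -1.58.

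Members on which the other genotypes agreed were chosen by the calls of those genotypes. Membership itself uses the mean Brg1-/- signal, and the fit estimated its spread from all 16 libraries. The Aire+/+ and Aire-/- comparisons called 4.5% and 6.26% of the whole table higher in mTEChi, and 3.17% and 3.66% of it higher in mTEClo. All 3 other genotypes called 4674 members higher in mTEChi. Of these, 4647 were positive and 2888 (61.8%) were called in Brg1-/-. Their median log2 fold change was 1.97 in Brg1-/-, against 2.54 in Brg1+/+, 2.46 in Aire+/+ and 2.57 in Aire-/-. Because the calls of the others chose these members, their medians are raised by the choice, and a smaller Brg1-/- value is no test of a difference. All 3 called 2806 members higher in mTEClo, of which 2714 were negative and 1289 (45.9%) were called in Brg1-/-. Their median was -1.37 without Brg1 and -2.27 to -2.32 in the others. Conversely, 6309 of the mTEChi-higher calls of Brg1-/- (43.5%) and 701 of the mTEClo-higher ones (21.3%) were called in none of the 3.

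None of these differences in calls shows that a region differed between genotypes. The test of the sort difference itself, Brg1-/- minus Brg1+/+, called 0 of the 208113 members (0%; limma, smallest adjusted p = 0.231). At an unadjusted p under 0.05 there were 15219 (7.31%). Leaving out Brg1-/- mTEChi replicate 1 or 2 gave 2 and 3 calls, and leaving out Brg1+/+ mTEChi replicate 1 or 2 gave 4 and 7. Only 4 members were called in opposite directions in the separate comparisons, and for each the adjusted p of the difference lay between 0.231 and 0.411. These 4 were singled out after their values were seen. One of them, on chromosome 6 from 134378561 to 134379060, read 35.2 and 32.8 against 4.90 and 6.74 in Brg1-/-, and 1.36 and 2.11 against 10.4 and 14.6 in Brg1+/+.

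Set against the mean sort difference of the 3 other genotypes, the sort difference of Brg1-/- was called at 7 members, which are all the calls in the whole table (0.0028%): 4 higher and 3 lower (limma; 23736 members, 11.4%, had an unadjusted p under 0.05). The 4 higher ones (A to D) were less open in Brg1-/- mTEClo than in mTEClo of every other genotype. Region A, on chromosome 11 from 56953864 to 56954363, read 18.4 and 20.04 in Brg1-/- mTEChi and 2.76 and 5.55 in mTEClo. In the 6 other mTEClo libraries it read between 34.7 and 81.7, and in the 6 other mTEChi libraries between 1.43 and 12.8. The difference of sort differences was 4.83 with an SE of 0.79 (limma adjusted p = 0.0283). The Brg1-/- sort difference of A, 2.03, was itself not called (limma adjusted p = 0.0616).

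Region B, on chromosome 11 from 112411478 to 112411977, read 16.5 and 22.6 in Brg1-/- mTEChi and 4.71 and 2.77 in mTEClo. Brg1+/+ cells read 6.43 and 7.52 in mTEChi and 60.3 and 55.4 in mTEClo. This was a call in opposite directions, and its difference from the other genotypes was 4.68 (SE 0.72, limma adjusted p = 0.0145). In region C, on chromosome 9 from 29699185 to 29699684, Brg1-/- mTEChi read 37.5 and 36.9, within the range of Brg1+/+ mTEChi (32.8 and 40.4). Its mTEClo values, 9.30 and 8.57, stood below the 72.4 and 48.8 of Brg1+/+. Region D, on chromosome 10 from 97835950 to 97836449, read 60.4 and 54.1 in Brg1-/- mTEChi and 14.9 and 15.2 in mTEClo, against 10.3 and 17.8 and then 48.1 and 28.0 in Brg1+/+. The differences of C and D were 3.50 and 3.33 (limma adjusted p = 0.035 and 0.0361). The Brg1-/- sort differences of B, C and D were called on the deposited scale but under none of the 3 rescalings.

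The 3 lower ones (E to G) lay at strongly open regions and were less open in Brg1-/- mTEChi than in the other mTEChi libraries. Region E, on chromosome 17 from 34434561 to 34435060, read 74.1 and 65.7 in Brg1-/- mTEChi and 139.5 and 123.9 in mTEClo. In mTEChi it read 147.6 and 153.4 in Brg1+/+, 248.3 and 208.4 in Aire+/+, and 235.0 and 302.1 in Aire-/-. The mTEClo values of the other genotypes ran from 65.3 to 128.4, so the order of the group means was turned in Brg1-/-. The mTEChi-higher order was called in Aire+/+ and Aire-/- but not in Brg1+/+ (limma adjusted p = 0.118). The Brg1-/- sort difference of E, -0.90 (limma adjusted p = 0.0361), was not called after cyclic loess (adjusted p = 0.0636). The difference of sort differences was -2.13 with an SE of 0.31 (limma adjusted p = 0.0145).

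Region F, on chromosome 12 from 112624628 to 112625127, had the same order of means, with 44.7 and 55.3 in Brg1-/- mTEChi and 142.3 and 99.4 in mTEClo. Brg1+/+ cells read 164.1 and 137.6 in mTEChi and 93.1 and 94.2 in mTEClo. The mTEChi-higher order of F was called in Aire-/- (limma adjusted p = 0.00888) but not in Brg1+/+ or Aire+/+ (adjusted p = 0.122 and 0.0677). Region G, on chromosome 7 from 139319158 to 139319657, had the higher mean in mTEClo in each genotype, and by more in Brg1-/-. In the other genotypes this was not called (limma adjusted p = 0.244 in Brg1+/+, 0.103 in Aire+/+ and 0.237 in Aire-/-). It read 25.4 and 34.2 in Brg1-/- mTEChi and 232.3 and 138.9 in mTEClo, against 106.6 and 134.5 and then 191.3 and 149.0 in Brg1+/+. The Brg1-/- sort difference of G, -2.57, was called under all rescalings and without each Brg1-/- library. Under quantile normalization and cyclic loess E, F and G were called against the other genotypes and A to D were not. Re-centring gave 7 calls, 1 higher and 6 lower. B, E, F and G were among them (limma adjusted p = 0.0441 for B), and A, C and D were not (adjusted p = 0.0541, 0.106 and 0.106). Without Brg1-/- mTEChi replicate 1 there were 2 higher and 9 lower calls, and without mTEChi replicate 2 there were 2 and 21. Without mTEClo replicate 1 there were 3 higher and 0 lower, and without mTEClo replicate 2 there were 0 and 1. Leaving out 1 Brg1+/+ library gave 4 and 9 calls without mTEChi replicates 1 and 2, and 1 call without either mTEClo replicate. None of the 7 was called when Brg1-/- was compared with Brg1+/+ alone.

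**Figure D5:**
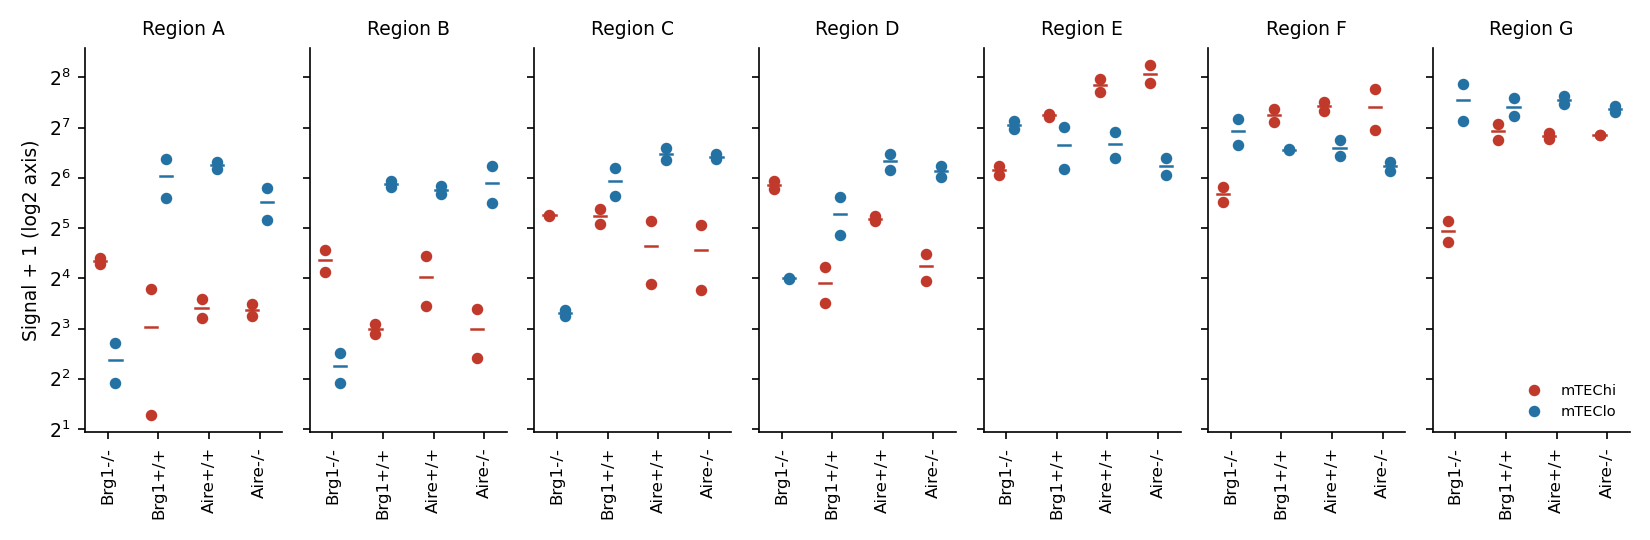
Signal + 1 of every library, on a log2 axis, at the 7 members whose sort difference in Brg1-/- was called against the mean of the other genotypes (A to G in the order of the text), in mTEChi (red) and mTEClo (blue), with bars at the group means. In A to D the Brg1-/- mTEClo points lie below the mTEClo points of the other genotypes, and in E to G the Brg1-/- mTEChi points lie below the other mTEChi points.

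The rule of 7.5 left out weak regions. The 2 members just inside it, on chromosome 13 from 71362708 to 71363207 and on chromosome 3 from 116399104 to 116399603, had sort differences of -0.15 and 2.25 that were not called (limma adjusted p = 0.943 and 0.192). A region just outside it, on chromosome 11 from 65358776 to 65359275, read 10.1 and 14.2 in mTEChi and 5.33 and 0.415 in mTEClo. Of the 42200 regions outside the rule, 475 were called, 469 higher in mTEChi and 6 higher in mTEClo. The 113822 members with a mean of at least 15 held 10824 of the mTEChi-higher and 3105 of the mTEClo-higher calls.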

How the data were processed

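The data are 1 deposited table of ATAC-seq signal in 250313 regions and 16 libraries of sorted mouse cells, 60000 cells per reaction per the labels' protocols. The values are a normalized signal that the authors deposited; they are not whole counts, and no reads could be recovered, so depth is unknown. Bowtie2, MACS2 and mm9 are named in the submitters' processing notes; their settings, the treatment of the Tn5 offset and the scaling are not given in the sources used here.

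Groups follow the labels. limma 3.58.1 in R 4.3.3 was fitted to log2(signal + 1) of all regions and libraries, with 1 mean for each of 8 groups (8 residual degrees of freedom), trend and robust moderation, and Benjamini-Hochberg adjustment over all 250313 regions; the members were then read out. Fold changes are therefore compressed at weak regions. The procedure was tested on simulated data. Tables were made in Python 3.11.15 with pandas 2.3.3 and numpy 2.4.6.

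Regions were named by rule: per direction the 10 called members with the largest fold change (mean at or above the member median, sorts not overlapping), the 3 with the smallest adjusted p, the 3 runs with the most calls, all calls against the other genotypes, and the 2 members nearest the 7.5 limit on each side; the text gives a subset. Readings at the genes that mark the cells had been planned and were not made, since the gene table given was of another build than mm9. Alternatives covered pseudocounts, filters, rescaling, weights, a replicate block, fewer libraries and each library left out. The members and lists were chosen with earlier results of these data known.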

Additional observations from a re-analysis of the deposited data

Results flagged for a closer look

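At 7 regions the sort difference of Brg1-/- differed from the mean sort difference of the other genotypes by a test of the difference itself (limma, adjusted p under 0.05). It was higher by 4.83 and 4.68 on the log2 scale at the regions of chromosome 11 starting at 56953864 and 112411478, by 3.5 at chromosome 9 from 29699185 and by 3.33 at chromosome 10 from 97835950. The differences were -2.13 at chromosome 17 from 34434561, -2.12 at chromosome 12 from 112624628 and -2 at chromosome 7 from 139319158. Each of the 7 was lost when Brg1-/- mTEClo replicate 1 was left out, with limma adjusted p from 0.0625 to 0.188, and the 3 regions called then were others.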

How the results depend on the processing

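For Brg1-/- mTEChi against mTEClo, the 17797 calls became 9078 after quantile normalization, 7937 after cyclic loess and 8589 in a fit of the 4 Brg1-/- libraries alone, and 5719 to 9452 without 1 Brg1-/- library. The median over members, 0.64, turned to -0.12 after re-centring. The calls against the other genotypes, 7, became 3 after quantile normalization and 3 after cyclic loess, and 1 to 23 without 1 library. The test against Brg1+/+ alone gave 0 to 7 calls without 1 library and 0 under the other alternatives tried. The Brg1+/+ calls, 26938, became 15642 after quantile normalization and 10646 to 29070 without 1 library. The shared mTEChi-higher calls, 6442, became 1511, 2155 and 1356 under quantile normalization, cyclic loess and re-centring, and 2250 to 4258 without 1 library. The shared mTEClo-higher calls, 2043, became 6609 after re-centring and 762 to 1593 without 1 library. A mean limit of 15 left 113822 members. With a replicate block the Brg1-/- count was 17746 and the calls against the other genotypes 6. Across Brg1-/- members, replicate 1 minus 2 in mTEChi correlated with replicate 1 minus 2 in mTEClo with r = -0.0062. That value covers Brg1-/- only and cannot tell whether the replicate numbers pair the libraries. Pseudocounts, filters, weights, a minimum fold change and leaving out chromosome X kept these counts within 1.5 times. Leaving out Brg1+/+ libraries, and cyclic loess and re-centring of the overlaps, were added after the data were seen. Of 644 values of single named regions under alternatives, 535 stayed on their side of the threshold, 109 were no longer called and none changed sign. The named regions were chosen by their values in these same data, so these totals follow in part from the choice. Depth is unknown, so how far it limits weak regions cannot be given.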
